A study of Mus musculus with 6 samples.

Results

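A list of 36 genes was followed in E13.5 embryonic mouse spleens. It holds genes of neural crest cells, of ligands they respond to, of the autonomic neurons that come from them and of peripheral glia. The list was taken by gene symbol and split into 24 neuronal genes, 6 genes of GDNF and endothelin signalling in the neural crest and 6 glial genes. Of the 36, 35 were named as the only symbol of a probe set, out of 19938 genes named in this way, and all 35 passed the filter on low values. Hand2os1, a long non-coding RNA beside Hand2, matched no probe set, and no level of it is given here. Total RNA had been hybridised to 6 Affymetrix arrays, 3 from spleens of Tlx1 heterozygous embryos and 3 from spleens of Tlx1 homozygous embryos. The Tlx1 protein is a homeobox factor needed for the development of the spleen. Every embryo thus carried at least 1 altered copy and no wild-type spleen was used here. The labels name no allele, and homozygous was taken to mean 2 altered copies. They do not say whether a replicate is 1 embryo or a pool, so the p-values rest on a spread between samples that may be no more than technical.

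Neural crest cells leave the dorsal neural tube and migrate into the body, where they give rise to sympathetic, parasympathetic and enteric neurons and to the glia that wrap them. The crest cells that enter the gut respond to GDNF, which acts through the receptor RET and its co-receptor GFRA1. They also respond to endothelin 3, which acts through EDNRB. The spleen forms in mesenchyme beside the stomach and pancreas, and sympathetic fibres reach it along its arteries.

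Probe set intensities were deposited in linear units, and their medians lay at 106 to 110 per array. Differences are log2 fold changes of intensity + 1, homozygous minus heterozygous, given with their standard error (SE) from limma, and genes whose adjusted p over all 18710 tested was below 0.05 count as called. Across genes, arrays of the same group correlated at 0.995 to 0.997 and arrays of different groups at 0.989 to 0.993. Tlx1, the check of the labels, read 825, 706 and 719 on the heterozygous arrays and 171, 209 and 199.9 on the homozygous arrays, with a log2 fold change of −1.95 ± 0.09 (SE; adjusted p = 1.30e-05). The sources used here do not say whether its probe set covers altered sequence. Of 6 measured spleen mesenchyme genes, Tlx1 included, 5 fell and none rose, and 3 fell without homozygous replicate 1 or with the level of Y-linked genes as a covariate. The homeobox genes Nkx2-5, at −1.36, and Nkx3-2, at −1.23, were among them, as was Wt1, at −0.33, which lost its call in those same fits. Under several alternatives, among them quantile normalization, cyclic loess and array weights, 1 of the 6 genes was called higher. The Y-linked level was higher on heterozygous arrays 1 and 3 (mean log2 of 8.76 and 8.99) than on the remaining arrays (8.07 to 8.22). A fit with that level as a covariate is given where it changes a call. The level goes in part with genotype, and the covariate adds a term to a fit of 6 arrays. Why a call was lost with it was not tested.

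More of these genes were higher than lower in homozygous spleens. Of the 35 measured, 16 rose and 3 fell, where 10.4% of all genes tested were called higher, 6.56% lower and 17.0% either way. The neuronal genes gave 10 rises and no fall, the signalling genes 3 rises and 1 fall, and the glial genes 3 rises and 2 falls. No neuronal gene was lower at an unadjusted p below 0.05 in limma, where 2515 of all 18710 genes tested were. The median log2 fold change was 0.29 over the 23 measured neuronal genes, 0.35 over the 6 signalling genes and 0.26 over the 6 glial genes, beside 0.02 over all genes tested. The groups did not overlap for 19 members that were higher and for 3 that were lower, where 21.1% and 17.2% of all genes did so (38.3% in either direction). Only 12 of the 19 calls were made without heterozygous replicate 1, without homozygous replicate 1 or with the Y-linked covariate, where 1689, 1198 and 1647 of all genes were called in place of 3178. Fabp7 was the 1 member still called lower with the covariate and when heterozygous replicate 1, heterozygous replicate 2, homozygous replicate 1 or homozygous replicate 3 was left out. Glial rises went from 3 to 1 without heterozygous replicate 1 or homozygous replicate 1. Signalling rises went from 3 to 5 without homozygous replicate 2, where 2319 of all genes were called higher, in place of 1951. Neuronal rises went from 10 to 6 with the covariate. After cyclic loess between arrays the neuronal median was 0.18 and the glial median 0.16. In bulk tissue, a change in the number of cells that express these genes and a change in RNA per cell cannot be told apart.

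The background share depended on brightness. Among genes with a mean log2 level below 6, 13.9% were called higher and 1.65% lower, beside 2 and 0 of 8 members at that level. From 6 to 8 the shares were 15.6% and 8.03%, beside 8 and 3 of 20 members. Above 8 they were 4.23% and 8.50%, beside 6 and 0 of 7 members.

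**Figure D1:**
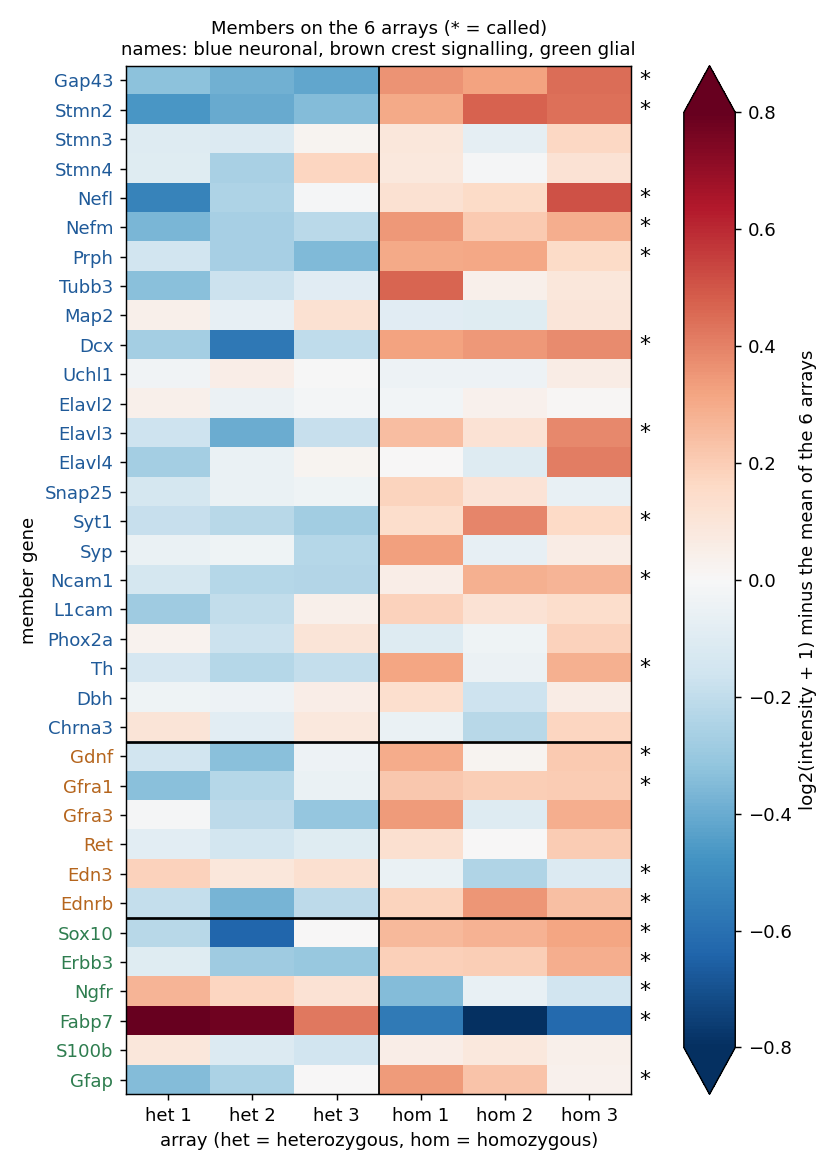
Each row is a member gene and each column an array; colour is the log2(intensity + 1) value minus the mean of the 6 arrays, and an asterisk marks a gene called at an adjusted p below 0.05. Most called rows turn from blue on the heterozygous arrays to red on the homozygous arrays, Fabp7, Ngfr and Edn3 turn the other way, and Uchl1, Elavl2 and Map2 stay near the middle.

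Promoters are shown for 4 of the called members, chosen as the deepest fall (Fabp7) and as rises from the neuronal list (Dcx, Prph) and the signalling list (Ednrb). They are the 250 bases before the start site that lies farthest upstream, from RefSeq on GRCm38.p6, which held 25 of the 36 genes, Hand2os1 included. Capitals mark a match, on either strand, to the retinoic acid receptor half-site AGGTCA, the homeobox core TAATTA, the TATA box TATAAA or the CCAAT box CCAAT, and no 2 matches overlapped.
Fabp7 (chr10:57784673-57784922, plus strand): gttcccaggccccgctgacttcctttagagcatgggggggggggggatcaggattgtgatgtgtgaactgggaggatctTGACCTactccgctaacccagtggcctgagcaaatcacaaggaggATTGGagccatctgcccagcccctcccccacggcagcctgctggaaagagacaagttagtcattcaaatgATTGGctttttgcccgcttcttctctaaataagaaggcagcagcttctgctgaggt
Dcx (chrX:143933220-143933469, minus strand): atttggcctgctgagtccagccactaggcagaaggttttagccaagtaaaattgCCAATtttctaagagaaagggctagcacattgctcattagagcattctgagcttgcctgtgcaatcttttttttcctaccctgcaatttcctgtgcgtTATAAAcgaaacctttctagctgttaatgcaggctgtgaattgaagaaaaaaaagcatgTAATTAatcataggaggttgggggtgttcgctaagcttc
Prph (chr15:99054924-99055173, plus strand): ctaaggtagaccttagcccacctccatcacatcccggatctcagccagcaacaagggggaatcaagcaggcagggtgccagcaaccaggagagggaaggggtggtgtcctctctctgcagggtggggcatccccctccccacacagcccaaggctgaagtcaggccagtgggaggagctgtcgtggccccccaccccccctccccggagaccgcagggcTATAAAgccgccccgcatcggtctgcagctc
Ednrb (chr14:103843702-103843951, minus strand): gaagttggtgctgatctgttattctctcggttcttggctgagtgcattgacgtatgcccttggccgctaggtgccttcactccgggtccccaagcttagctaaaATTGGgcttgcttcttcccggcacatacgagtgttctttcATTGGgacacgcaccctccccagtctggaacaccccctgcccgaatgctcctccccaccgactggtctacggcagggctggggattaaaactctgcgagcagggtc
Fabp7 held 1 half-site, on the opposite strand, and 2 CCAAT boxes. Dcx held 1 homeobox core, 1 TATA box and 1 CCAAT box, Prph held 1 TATA box and Ednrb 2 CCAAT boxes. Among 27025 promoters of the same length, 13.8% held the half-site, 4.91% the homeobox core, 13.0% the TATA box and 34.5% the CCAAT box. Among the 25 promoters of the list, 3 held the half-site, 1 the homeobox core, 4 the TATA box and 12 the CCAAT box. A match describes the letters and is no evidence of binding.

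Genes of the growing axon and its cytoskeleton held the largest rises. Gap43, a membrane protein of growth cones, read 1761, 1697 and 1664 on the heterozygous arrays and 2846, 2769 and 3014 on the homozygous arrays. Every homozygous value lay above every heterozygous one, and the means of 1707 ± 49.7 (SD, n = 3) and 2876 ± 125 (SD, n = 3) gave a log2 fold change of 0.75 ± 0.06 (SE; adjusted p = 0.000307). Stmn2, a microtubule regulator of growing axons, read 197, 205 and 213 against 336, 376 and 369, a 1.75-fold rise, with a log2 fold change of 0.81 ± 0.07 (SE; adjusted p = 0.000341). Dcx, a microtubule-binding protein of migrating and newly formed neurons, read 142, 115 and 149.7 against 215, 219 and 224, and heterozygous replicate 2 was its lowest value. Its log2 fold change was 0.70 ± 0.10 (SE; adjusted p = 0.0033), and it was 0.59 to 0.77 in the refits without 1 array.

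The 3 neuronal intermediate filament genes on the list all rose. Nefm, the medium neurofilament chain, read 239.7, 257 and 266 against 395, 358 and 378 and rose by 0.57 ± 0.07 (SE; adjusted p = 0.00195). Prph, encoding peripherin, the filament of peripheral neurons, read 102, 94.5 and 88.7 against 141, 141 and 127 and rose by 0.51 ± 0.08 (SE; adjusted p = 0.00437). Nefl, the light neurofilament chain, read 116, 142 and 167 against 183, 188 and 240.2, with a wide spread in both groups. Its log2 fold change of 0.52 ± 0.14 (SE; adjusted p = 0.041) passed narrowly, and the call was lost without heterozygous replicate 1 (0.39) or 2 (0.53), without homozygous replicate 1 (0.59) or 3 (0.40), and with the Y-linked covariate (adjusted p = 0.124).

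Other cytoskeletal genes of neurons did not pass. Tubb3, the neuronal tubulin used as a general marker of neurons, read 33.8, 37.9 and 40.3 against 59.7, 44.2 and 45.7, with homozygous replicate 1 well above the others. Its log2 fold change of 0.40 ± 0.12 (SE; adjusted p = 0.0506) missed the threshold, although the groups did not overlap. Tubb3 passed without homozygous replicate 2 (0.48, adjusted p = 0.0366) and under 4 other settings. Stmn3 and Stmn4, relatives of Stmn2, were at 0.13 (95% interval −0.05 to 0.31) and 0.12 (−0.11 to 0.36). Map2, a dendritic microtubule protein, was at −0.06 (−0.24 to 0.12) and Uchl1, an abundant neuronal ubiquitin hydrolase, at −0.01 (−0.16 to 0.13). The upper bound of both intervals lies below the lower bound for Stmn2 (0.65). Uchl1 read 275, 290.4 and 279 on the heterozygous arrays and 272, 272 and 292 on the homozygous arrays, and the groups overlapped.

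**Figure D2:**
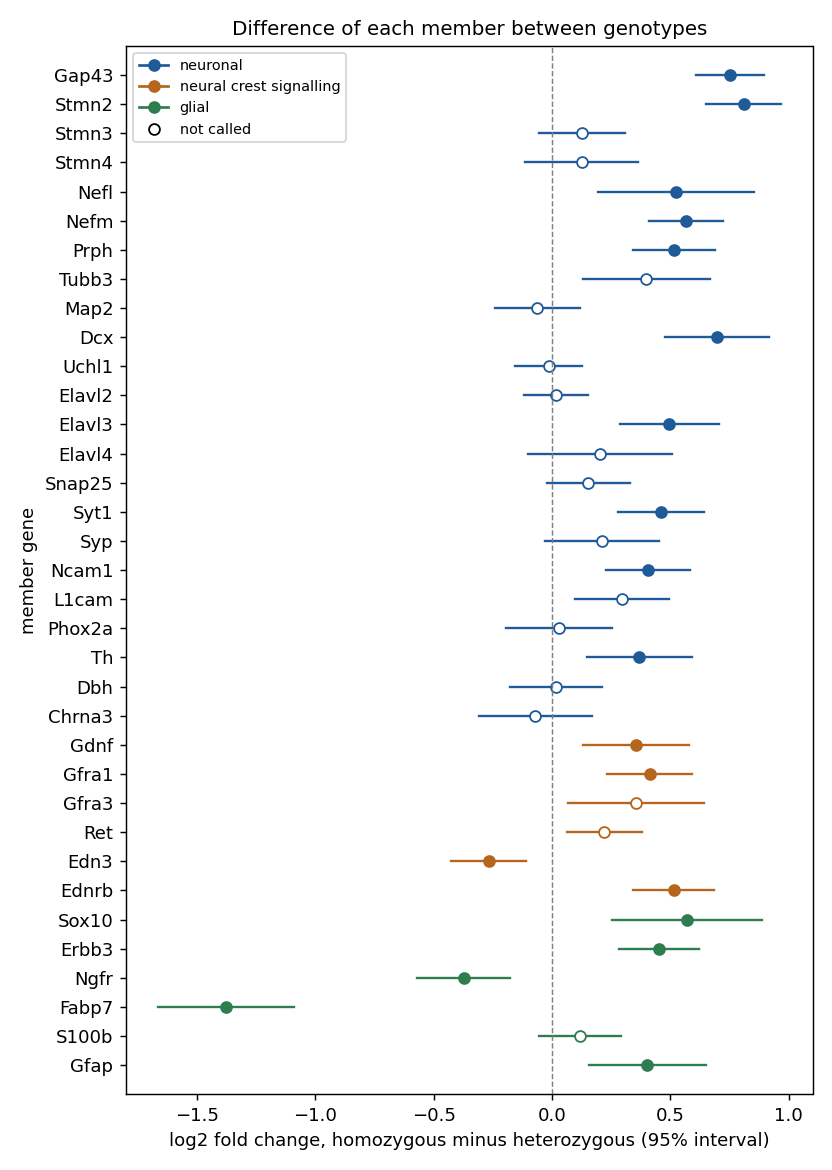
Points give the log2 fold change of each measured member, homozygous minus heterozygous, and lines its 95% interval from limma; filled points were called. Neuronal genes lie from −0.07 (Chrna3) to 0.81 (Stmn2), and Fabp7 stands alone at −1.38.

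RNA-binding, synaptic and adhesion genes were mixed. Of the neuronal ELAV proteins, which bind and stabilise messenger RNA, Elavl3 read 55.9, 47.4 and 55.1 against 74.5, 68.1 and 82.0 and rose by 0.50 ± 0.09 (SE; adjusted p = 0.0105). Elavl2 was at 0.01 (95% interval −0.12 to 0.15) and Elavl4 at 0.20 (−0.10 to 0.51), with overlapping groups for both. Syt1, the calcium sensor of synaptic vesicles, read 67.1, 65.4 and 62.7 against 84.4, 100.3 and 85.4 and rose by 0.46 ± 0.08 (SE; adjusted p = 0.00834). It lost its call with the Y-linked covariate (adjusted p = 0.0503). Snap25, a fusion protein of the nerve ending, was at 0.15 (−0.02 to 0.33) and the vesicle protein gene Syp at 0.21 (−0.03 to 0.45), and neither passed.

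Ncam1, a cell adhesion molecule of neurons and of other embryonic tissues, read 709, 668 and 665 against 812, 952 and 947 and rose by 0.41 ± 0.08 (SE; adjusted p = 0.0122). Its call was lost with the Y-linked covariate (adjusted p = 0.0633). L1cam, which axons use to bundle and grow along each other, read 48.8, 51.8 and 61.3 against 67.8, 64.7 and 65.8. The groups did not overlap, and the log2 fold change of 0.29 ± 0.09 (SE; adjusted p = 0.051) fell just short. It passed without heterozygous replicate 3 (0.39, adjusted p = 0.0165) and under 4 other settings.

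Genes that define autonomic neurons by their transmitter or regulator were dim, and of the 4 measured only Th passed. Th encodes tyrosine hydroxylase, the first enzyme of catecholamine synthesis, and read 61.0, 57.1 and 58.6 against 83.6, 65.0 and 81.7. Homozygous replicate 2 lay nearer the heterozygous arrays than the other homozygous arrays did. The log2 fold change was 0.37 ± 0.10 (SE; adjusted p = 0.0355), and leaving out any array other than homozygous replicate 2 ended the call (0.30 to 0.48 over all 6), as did the fit, with the Y-linked covariate (adjusted p = 0.0991), after quantile normalization (0.0557) and after cyclic loess (0.0858). Dbh, the enzyme that makes noradrenaline, read 40.1, 39.9 and 42.6 against 45.2, 36.5 and 42.8 and was at 0.02 (95% interval −0.18 to 0.21). Phox2a, a homeobox regulator of autonomic neurons, read 70.8, 61.3 and 74.4 against 64.3, 67.6 and 78.8 and was at 0.03 (−0.20 to 0.25). Chrna3, a nicotinic receptor subunit of autonomic ganglia, was at −0.07 (−0.31 to 0.17). At intensities of 36.5 to 78.8 for these last 3 genes, below the array medians, the values are no proof of expression, and adding 1 to every intensity makes such fold changes smaller.

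**Figure D3:**
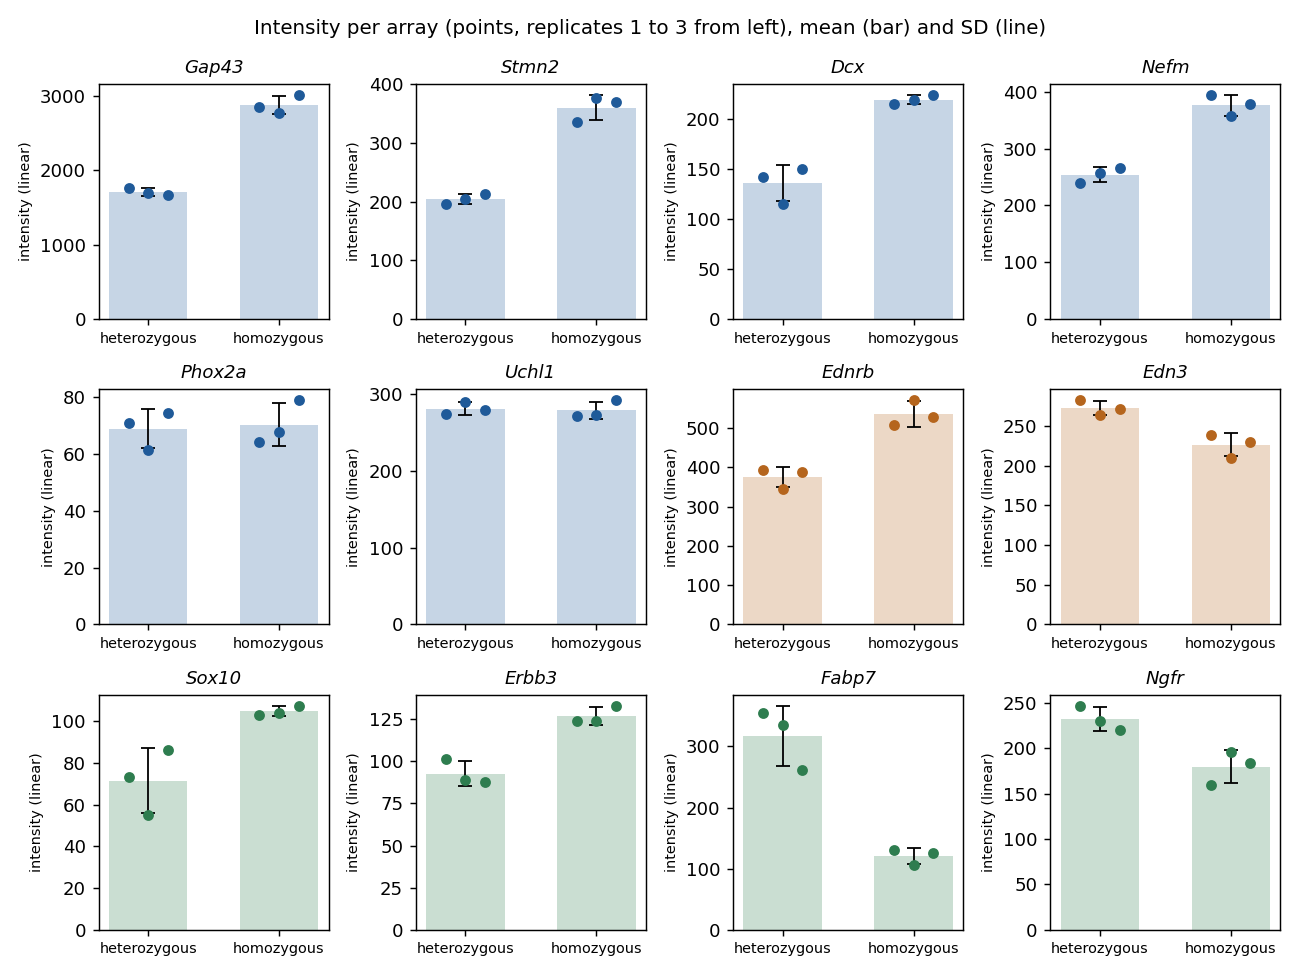
Panels show the linear intensity of 12 members; points are arrays, bars group means and lines the SD over 3 arrays. Gap43, Stmn2, Dcx, Nefm, Ednrb, Sox10 and Erbb3 are higher on every homozygous array, Fabp7, Ngfr and Edn3 lower, and the groups overlap for Phox2a and Uchl1.

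Among the signalling genes, ligand and receptors of the GDNF family all had estimates above 0, and 2 of the 4 passed. Gdnf, the ligand, read 84.0, 74.2 and 91.0 against 116, 94.99 and 109, with no overlap and a log2 fold change of 0.35 ± 0.10 (SE; adjusted p = 0.0411). That call was lost without heterozygous replicate 1 (0.36) or 2 (0.28), without homozygous replicate 1 (0.29) or 3 (0.34) and after cyclic loess (0.27). Gfra1, the co-receptor that binds GDNF, read 297, 319 and 361 against 436, 430.3 and 431. The homozygous arrays were nearly equal, and the rise of 0.41 ± 0.08 (SE; adjusted p = 0.0118) kept its call in every alternative tried. Ret, the signalling receptor, read 71.9, 68.9 and 71.3 against 83.6, 76.4 and 88.0, a log2 fold change of 0.22 ± 0.07 (SE; adjusted p = 0.061) that did not pass. Without homozygous replicate 2 it passed at 0.28 (adjusted p = 0.0302), as it did with array weights (0.0316) and with the stricter filter (0.0401). Gfra3, the co-receptor for artemin that sympathetic neurons carry, read 90.5, 78.8 and 73.5 against 116, 84.8 and 112. Its groups overlapped, and its log2 fold change was 0.35 ± 0.13 (SE; adjusted p = 0.087). It passed without homozygous replicate 2 (0.49, adjusted p = 0.0152), with array weights (0.0411) and with the replicate number as a block (0.0457).

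Endothelin receptor and ligand moved in opposite directions. Ednrb, the receptor, which crest cells share with some endothelial and mesenchymal cells, read 393, 346 and 387 against 508, 571 and 529 and rose by 0.51 ± 0.08 (SE; adjusted p = 0.00443). Edn3, the ligand, read 282, 264 and 272 against 239, 210.3 and 230.2, with no overlap and a log2 fold change of −0.27 ± 0.07 (SE; adjusted p = 0.0331). That small fall lost its call in every refit without 1 array (−0.31 to −0.22), after quantile normalization (−0.20), with the Y-linked covariate (−0.23) and after cyclic loess (−0.24).

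Glial genes moved both ways. Fabp7, a fatty acid binding protein of radial glia and of the precursors of Schwann cells, fell 2.60-fold, from 355, 334 and 261 to 131, 105 and 126. Every homozygous value lay below every heterozygous one, and heterozygous replicate 3 was the lowest of its group. The means were 317 ± 49.6 (SD, n = 3) and 121 ± 13.6 (SD, n = 3), and the log2 fold change of −1.38 ± 0.13 (SE; adjusted p = 0.000469) ranked 22 among the 1227 genes called lower. It lay between −1.51 and −1.28 in the refits without 1 array and kept its call in every alternative tried. Ngfr, the low-affinity neurotrophin receptor p75 of crest cells, glia and some mesenchyme, read 247, 229.8 and 221 against 159.9, 196 and 183 and fell by 0.37 on the log2 scale (SE 0.09; adjusted p = 0.0232). Its call was lost without heterozygous replicate 1 (−0.33) or 2 (−0.38), without homozygous replicate 1 (−0.29) or 3 (−0.39), and with the Y-linked covariate (adjusted p = 0.0788).

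Sox10, a transcription factor of crest cells and peripheral glia, lay the other way. It read 73.4, 55.0 and 86.0 on the heterozygous arrays, where replicate 2 was low, and 103, 104 and 107 on the homozygous arrays. The rise of 0.57 ± 0.14 (SE; adjusted p = 0.0273) lost its call without heterozygous replicate 1 (0.60) and without homozygous replicate 1 (0.58) or 3 (0.55). Erbb3, the neuregulin receptor of Schwann cell precursors, which epithelia also express, read 101, 88.9 and 87.8 against 124, 124 and 133 and rose by 0.45 ± 0.07 (SE; adjusted p = 0.0067), a call kept in every alternative tried. Gfap, an intermediate filament of mature glia, was dim, at 34.4, 36.9 and 44.2 against 56.1, 51.9 and 45.2. Its log2 fold change was 0.40 ± 0.11 (SE; adjusted p = 0.0386), and the call was lost in 4 of the 6 refits without 1 array (without heterozygous replicate 1 or 2 and homozygous replicate 1 or 2; 0.33 to 0.50 over all 6), after cyclic loess (adjusted p = 0.0982), with the replicate number as a block (0.0526) and with the Y-linked covariate (0.0600). S100b, a calcium-binding protein of glia, stayed between 30.6 and 36.5 on all 6 arrays, at 0.12 (95% interval −0.05 to 0.29).

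Homozygous replicate 2 was the lowest homozygous array for 19 of the 35 members, where it was the lowest for 42.1% of all genes tested. Heterozygous replicate 2 was the highest of its group for 2 of the 35 members, against 26.1% of all genes. The median deviation of the neuronal members from their heterozygous mean was 0.33, 0.19 and 0.29 on homozygous arrays 1 to 3. For the signalling members these values were 0.43, 0.15 and 0.40, and for the glial members 0.27, 0.28 and 0.17. Homozygous replicate 2 was thus the lowest of the 3 for the neuronal and signalling lists and not for the glial list. Summed intensity of 13 markers of the endocrine pancreas was 4768, 1528 and 3637 on the same arrays, against 813, 1347 and 1792 on the heterozygous arrays. Gcg, the glucagon gene, chosen after its values were seen, made most of this spread, at 3751, 761 and 2728 against 98.0, 659 and 1032, and was not called (log2 fold change 2.28 ± 0.85 (SE; adjusted p = 0.0986)). It passed without homozygous replicate 2 (2.98, adjusted p = 0.0486). Whether endocrine cells have a part in the array differences of the members was not tested.

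Other genes of the same cell types were listed separately, and their counts stand beside the same 10.4% higher and 6.56% lower among all genes. Some genes stand in more than 1 of these lists, or also in a list of neighbouring tissues below, and count in each. Of 27 measured genes of autonomic neurons 5 rose and 1 fell, with a median of 0.24. At an unadjusted p below 0.05 in limma, 12 of them were higher and 3 lower. At that threshold 3867 of all 18710 genes tested were higher and 2515 lower. The falls numbered 3 under a variance trend and robust fit, 2 when homozygous replicate 1 was left out, and 0 once the Y-linked level was fitted. All genes called lower numbered 1660, 499 and 507 in those fits, in place of 1227. The rises numbered 11 without homozygous replicate 2, 3 without homozygous replicate 1 or 3, and 2 with the Y-linked covariate. In those fits 2319, 699, 987 and 1140 of all genes were called higher, in place of 1951. The rises included the transcription factor genes Isl1 (0.56 ± 0.10 (SE; adjusted p = 0.00872)) and Hand2 (0.56), both also expressed in mesenchyme or pancreas, and the neurotrophin receptor gene Ntrk3 (0.40). The acetylcholine transporter gene Slc18a3 (0.35) and the tubulin gene Tubb2b (0.25), both named after their values were seen, were the others. Npy, a neuropeptide of sympathetic neurons, fell from 194 ± 29.8 (SD, n = 3) to 131 ± 3.23 (SD, n = 3), with a log2 change of −0.55 ± 0.10 (SE; adjusted p = 0.0104). The call of Npy was lost with the Y-linked covariate (adjusted p = 0.0707). Ntrk3 lost its call without heterozygous replicate 1 (0.38) or 3 (0.35), without homozygous replicate 3 (0.32), after quantile normalization (0.37), after cyclic loess (0.29) and with the covariate (0.25). Tubb2b lost its call in all 6 refits without 1 array (0.20 to 0.28), after median centring (0.23), with the replicate number as a block (adjusted p = 0.0695) and with the covariate (0.18), and Slc18a3 without homozygous replicate 1 (0.31) and with the covariate (0.27).

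Of 26 measured genes of synapses and axons 7 rose and none fell in limma, with a median of 0.22. None was lower at an unadjusted p below 0.05 in limma, beside 2515 of all 18710 genes tested. The neurofilament-related filament gene Ina rose by 0.59 ± 0.08 (SE; adjusted p = 0.00394), the vesicle protein gene Syt4 by 0.46, the axonal adhesion gene Cntn2 by 0.41 and Nsg2 by 0.36. Syt4 and Nsg2 lost their calls without heterozygous replicate 2 and without homozygous replicate 1 or 3, and Nsg2 also without heterozygous replicate 3. Without heterozygous replicate 1 the rises numbered 4, without heterozygous replicate 2 or homozygous replicate 3 they numbered 3, and without homozygous replicate 1 they numbered 2. All genes called higher numbered 1046, 820, 987 and 699 in those fits, in the same order, in place of 1951. The other called genes, Syn1, Stx1a and Syt11, named after their values were seen, all lost their calls without heterozygous replicate 1, without homozygous replicate 1 or 3 and with the Y-linked covariate. Ina and Prph are partners of the neurofilament chains in peripheral and developing neurons. A further neurofilament chain gene of this list, Nefh, named after its values were seen, was not called. Its log2 fold change was 0.12 ± 0.09 (SE; adjusted p = 0.376), and the groups overlapped.

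Of 16 measured genes of Schwann cells and glia 4 rose and none fell, with a median of 0.23. At an unadjusted p below 0.05 in limma 1 was lower, beside 2515 of all 18710 genes tested. Nrg1, the neuregulin ligand of the ERBB receptors, rose by 0.48 ± 0.07 (SE; adjusted p = 0.00428), beside the rise of its receptor gene Erbb3 above. The glial membrane protein gene Ttyh1 rose by 0.49, the myelin and epithelial membrane gene Mal by 0.43 and the myelin gene Pmp22, which many mesenchymal cells also express, by 0.39. The call of Mal was lost without heterozygous replicate 2 (0.35), without homozygous replicate 1 (0.37) and after cyclic loess (0.32), and Pmp22 with the Y-linked covariate (0.31).

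Genes of the early neural crest gave 2 rises and 4 falls among 16, with a median of 0.08. Msx2, a homeobox gene, rose by 0.60 ± 0.08 (SE; adjusted p = 0.00306), and Sox8, a relative of Sox10 named after its values were seen, by 0.32. Sox9, which crest, cartilage and pancreatic progenitors use, fell from 292 ± 24.9 (SD, n = 3) to 172 ± 11.99 (SD, n = 3), with a log2 change of −0.76 ± 0.08 (SE; adjusted p = 0.00124). Kit (−0.72), also a receptor of blood progenitors, Ets1 (−0.39), also expressed in endothelium, and Snai2 (−0.27), also a mesenchymal gene and named after its values were seen, were the other falls. Leaving out any array other than homozygous replicate 3 ended the call of Snai2 (−0.33 to −0.24 over all 6), and any other than homozygous replicate 2 that of Sox8 (0.26 to 0.40). Both calls were also lost with the Y-linked covariate (−0.29 for Snai2 and 0.24 for Sox8), and that of Sox8 after quantile normalization (0.32), median centring (0.30) and cyclic loess (0.27) and with the replicate number as a block (adjusted p = 0.0554). The early crest rises numbered 4 without homozygous replicate 2, and 1 when heterozygous replicate 2, heterozygous replicate 3, homozygous replicate 1 or homozygous replicate 3 was left out. All genes called higher numbered 2319, 820, 1697, 699 and 987 in those fits, in the same order, in place of 1951.

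In the wider GDNF and endothelin pathways 2 of 11 measured genes rose (1 with the Y-linked covariate) and none fell, with a median of 0.11. None was lower at an unadjusted p below 0.05 in limma, beside 2515 of all 18710 genes tested. Nrtn, neurturin, a relative of GDNF, rose from 117 ± 4.32 (SD, n = 3) to 179 ± 16.5 (SD, n = 3), with a log2 change of 0.61 ± 0.08 (SE; adjusted p = 0.00268) kept in every alternative tried. Edn1, an endothelin ligand made by vessels and epithelia, rose by 0.59 and lost its call with the Y-linked covariate (adjusted p = 0.0862). Of 2 neurotrophin genes measured Bdnf rose by 0.32 ± 0.08 (SE; adjusted p = 0.0257), a call lost in 4 of the 6 refits without 1 array (without heterozygous replicate 1 or 2 and homozygous replicate 1 or 3; 0.28 to 0.39 over all 6) and after cyclic loess (adjusted p = 0.0642).

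**Figure D4:**
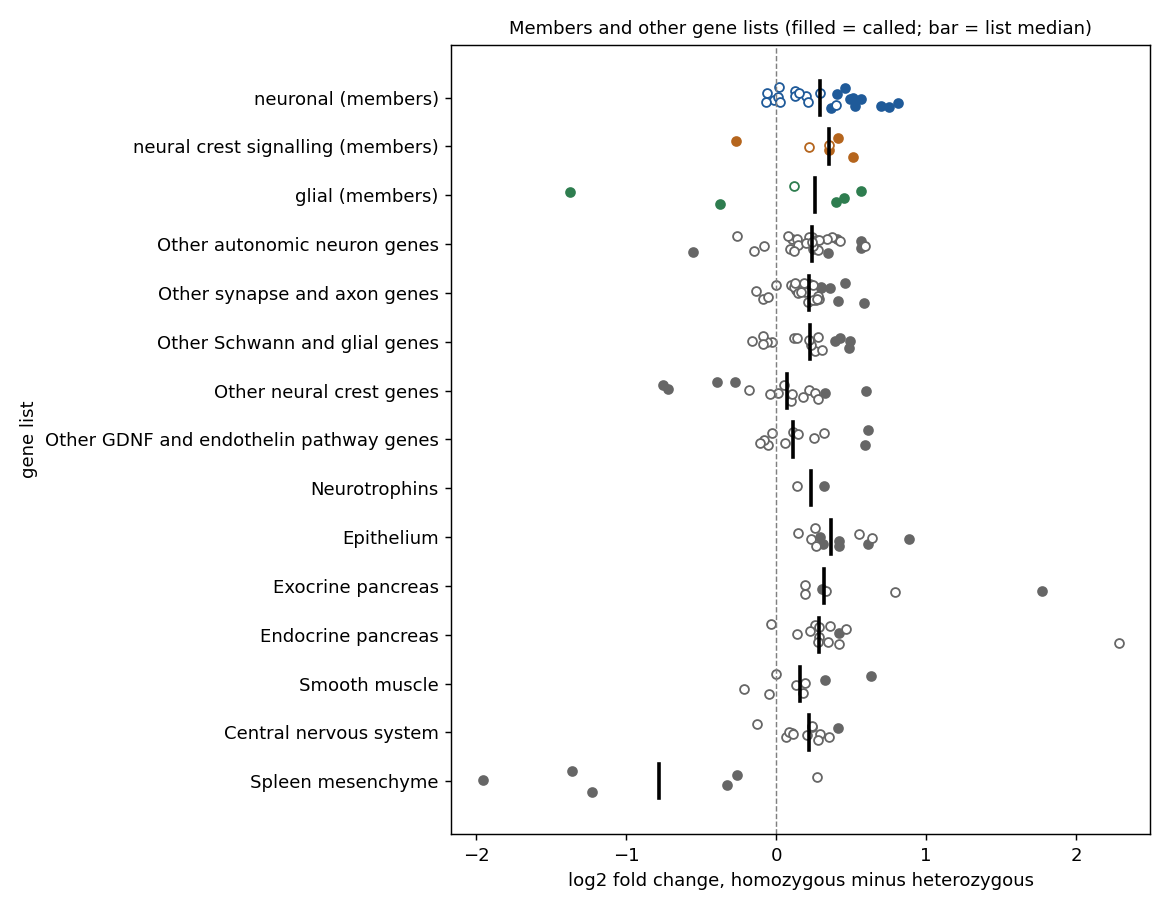
Each point is a gene, placed by its log2 fold change, homozygous minus heterozygous; filled points were called and the bar is the median of its list. The medians of the neuronal, signalling and glial members (0.29, 0.35 and 0.26) lie near those of the epithelium and pancreas lists (0.29 to 0.37), and the median of the spleen mesenchyme list lies below 0.

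Marker lists of neighbouring tissues had medians above 0 in the same spleens, and their counts of rises are read against the 10.4% of all genes called higher. Of 12 epithelium markers 6 rose and none fell, with a median of 0.37, and their summed intensity was 2991 to 3725 on heterozygous and 3907 to 4292 on homozygous arrays. The rises numbered 1 without heterozygous replicate 2, 1 without homozygous replicate 1 and 3 without homozygous replicate 3. In those fits 820, 699 and 987 of all genes were called higher, in place of 1951. Cldn3, a tight junction gene, read 101, 117 and 118 against 168, 161 and 185 and rose by 0.61 ± 0.08 (SE; adjusted p = 0.00315), a call kept in every alternative tried. Epcam, the general epithelial adhesion gene, rose by 0.42 ± 0.11 (SE; adjusted p = 0.0309), Cldn6, an embryonic tight junction gene, by 0.88, and Foxa1, a forkhead factor of gut epithelium, by 0.42. Epcam and Cldn6 lost their calls in 4 of the 6 refits (without heterozygous replicate 2 or 3 and homozygous replicate 1 or 3; 0.35 to 0.52 for Epcam and 0.63 to 1.13 for Cldn6). Epcam also lost its call with the Y-linked covariate (adjusted p = 0.108), Cldn6 with a variance trend and robust fit (0.0748), and Foxa1 under 8 settings, the covariate among them (0.0693).

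Of 6 exocrine pancreas markers 2 rose and none fell, with a median of 0.32 and sums of 574 to 1209 against 1970 to 2226. Cpa1, a digestive carboxypeptidase, made most of that sum and rose by 1.77 ± 0.30 (SE; adjusted p = 0.00793), and its adjusted p was 0.0575 with a variance trend and robust fit. Cela1, a pancreatic elastase, rose by 0.31 and lost its call in every refit but the one without homozygous replicate 2 (0.21 to 0.36), with the Y-linked covariate (adjusted p = 0.101), after quantile normalization (0.28) and after cyclic loess (0.23). Of 13 endocrine pancreas markers Nkx6-1 alone rose, by 0.42, and none fell, with a median of 0.29 and sums of 813 to 1792 against 1528 to 4768. The endocrine rises numbered 8, with a median of 0.43, without homozygous replicate 2, 2 without heterozygous replicate 3, and 0 in each of the other refits. All genes called higher numbered 2319 and 1697 in the first 2 of these fits and 699 to 1046 in the others. Endocrine cells share Isl1, Uchl1, Snap25, Syp and Stmn2 with neurons.

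Among 12 genes of the central nervous system Nkx6-2 alone rose, by 0.41, with a median of 0.22 and sums of 743 to 829 against 850 to 946. Its call was lost in 4 of the 6 refits (without heterozygous replicate 1 or 2 and homozygous replicate 1 or 3, 0.30 to 0.48 over all 6). Without homozygous replicate 2, 2 genes of the list rose, where 2319 of all genes did. Among 8 smooth muscle genes Des rose by 0.64 and Mylk by 0.33, with a median of 0.16 and sums of 2251 to 2616 against 2651 to 2942. The call of Mylk was lost with the Y-linked covariate (0.24) and without heterozygous replicate 1 (0.32). No fall passed in these 5 lists. At an unadjusted p below 0.05 in limma, 1 smooth muscle gene and no other was lower, beside 2515 of all 18710 genes. With the filter at log2 6, 16 added before the logarithm, a variance trend and robust fit or array weights, 1 smooth muscle gene was called lower. None of the markers measured was at 0, and the lowest single value was 20.3. The part of these tissues in the member results was not tested.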

How the data were processed

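The authors deposited 1 linear intensity per probe set and array. Per the submitters' processing notes these come from GCRMA, which corrects background by probe sequence and normalizes arrays to each other. The sources used here name neither its version nor a genome build. Of 35512 probe sets, 21789 had 1 gene symbol in the platform annotation, 1621 had several and 12102 none, and only the first kind was used. Values became log2(intensity + 1). Probe sets were kept where 3 or more arrays reached log2 4 (intensity 15), and the one brightest on average stood for its gene; Stmn3 alone among the members had another. limma 3.58.1 in R 4.3.3 (lmFit, eBayes, no covariate) gave two-sided tests with Benjamini-Hochberg adjustment over 18710 genes, tested on simulated data. Precision is limited by the number of arrays. Members, lists, brightness classes and promoter motifs were chosen with earlier results of these data known. All members are named, and from each other list up to 4 called genes with the largest change; others are said to be chosen after their values were seen. The Y-linked covariate used Eif2s3y, Kdm5d and Uty. Alternatives covered filter, added number, probe sets, normalization, variance model, array weights, replicate block, covariate and leaving out each array.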

Additional observations from a re-analysis of the deposited data

How the results depend on the processing

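Of the 19 member calls, 10 (Gap43, Stmn2, Nefm, Prph, Dcx, Elavl3, Gfra1, Ednrb, Erbb3 and Fabp7) kept their call and direction in every refit without 1 array and in every other alternative in which all members were tested. With the Y-linked covariate 1140 genes were called higher and 507 lower (1647 in all, against 3178), and 12 members were called, of which 1 was lower; neuronal rises numbered 6, glial falls 1 and signalling falls 0, and the neuronal median was 0.38. The signalling fall was also lost (0 calls) after quantile normalization and after cyclic loess, and signalling rises numbered 5 with array weights. The neuronal median was 0.37 and the glial median 0.040 with the filter at log2 6, which leaves out the dimmest members, and 0.18 and 0.16 after cyclic loess. The cause of the other shifts was not tested.

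Leaving out 1 array at a time gave 1198 to 3563 called genes (699 to 2319 higher, 499 to 1244 lower) and 12 to 20 called members, 11 to 18 of them higher and 1 to 2 lower. Neuronal rises numbered 8 to 11, signalling rises 2 to 5, signalling falls 0, glial rises 1 to 3 and glial falls 1 to 2. List medians lay at 0.24 to 0.36 (neuronal), 0.28 to 0.42 (signalling) and 0.23 to 0.27 (glial). Fewer samples enter these fits.

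Members near 0 that were not called changed sign. Stmn3 was at −0.10 when its probe sets were averaged, and Map2 was at 0.015 and Chrna3 at 0.014 with the Y-linked covariate. Uchl1 was at 0.065 after quantile normalization and 0.026 after cyclic loess. Phox2a and Dbh were at −0.020 and −0.029 after quantile normalization and at −0.079 and −0.091 after cyclic loess. Phox2a was at −0.00059 with array weights, and Elavl2 and Dbh were at −0.0037 and −0.0010 after median centring. Without 1 array, Uchl1 ranged from −0.047 to 0.0095, Elavl2 from −0.0058 to 0.039, Phox2a from −0.056 to 0.089, Dbh from −0.045 to 0.10 and Chrna3 from −0.17 to 0.024.

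With the replicate number as a block 3163 genes (2091 higher, 1072 lower) and 19 members were called; Gfap lost its call (adjusted p = 0.0526) and Gfra3 gained one (0.0457). Deviations of same-numbered arrays from their group means correlated at −0.01, 0.04 and −0.11, and 1 of 6 arrays correlated best with its own number, so the numbers were not taken as pairs. Low intensity limits Tubb3, Snap25, Dbh, Chrna3, S100b and Gfap, which the filter at log2 6 left out. The called Elavl3, Syt1, Th and Sox10 also lay below the array medians on all 6 arrays.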
